A study of Homo sapiens with 9 samples.

Results

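Transfer RNA (tRNA) gene neighbourhoods were taken as every RefSeq gene of biotype tRNA on chromosomes 1 to 22 and X of GRCh38.p14, with each gene span widened by 500 bp on both sides. The table names 443 such genes. 14 of them lie on unplaced, patch or alternate scaffolds, which leaves 429 windows out of 58419 made in the same way for RefSeq genes of every biotype. The median tRNA gene was 73 bp long and the median window 1073 bp. Neighbouring windows overlap and then share peaks, and the 429 windows merge into 352 separate stretches. The rule for members used annotated biotype and position alone, though it was set with earlier results of these data known.

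tRNA genes are short and are transcribed by RNA polymerase III. Their promoter lies inside the transcribed sequence: the factor TFIIIC binds an A box and a B box within the gene and places TFIIIB upstream of it, and TFIIIB recruits the polymerase. The human genome holds many copies, some in dense arrays and others standing alone, and only a part of them is active in any cell type. DNA:RNA hybrids, the base-paired part of R-loops, form where a transcript anneals back to its template strand, and in budding yeast they have been mapped at tRNA genes. Gene names read as TR, the amino acid letter, the anticodon, a number for the mature sequence and a copy number, so that genes sharing all but the last number encode the same mature tRNA.

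Hybrids were mapped by DRIP-seq, in which nucleic acid cut with restriction enzymes is precipitated with the hybrid-binding antibody S9.6 and sequenced. All cells were SH-SY5Y, an established human neuroblastoma line, carrying a short hairpin RNA delivered by lentivirus under a U6 promoter (pLVX-U6). Puromycin was used at 2 µg/mL for 2 weeks to select them and at 1 µg/mL afterwards. The control group (shNC) carried a non-targeting hairpin and the knockdown group (shTDP43) a hairpin against TDP-43, a DNA- and RNA-binding protein. Each genotype had 3 libraries without RNase H, called untreated below, and 1 library whose nucleic acid was digested for 6 h with RNase H, which destroys the RNA of a hybrid. Every library used 6 µg of material, 5 enzymes (BsrGI, EcoRI, HindIII, SspI and XbaI) and 8 µL of antibody, and an input library named in the labels was not analysed here. Whether replicates came from separate transductions is not said, so p-values measure the spread between these libraries only, which may be technical.

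The untreated lists held between 57204 and 73353 peaks on these chromosomes, covering 91.6 to 142 Mb, and replicate 1 of shTDP43 was the lowest on both counts. The lists after RNase H held 15504 peaks in shNC and 8868 in shTDP43. Of 10 genes of the adrenergic neuroblastoma programme 9 carried a peak in every untreated library, and of 5 hepatocyte genes 0 did. The lists hold no read counts, so a window without a peak is one where no peak was called, not one shown to lack hybrids. They also do not measure TDP-43 RNA, so the knockdown itself was not checked.

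The files give positions only. RefSeq promoter sequences (GRCh38.p14, 300 bases each) contained 14 of the 429 tRNA genes whole, and all 14 held the B box, searched as GTTCNANNC, on a single strand. The same letters occurred on either strand in 7.5% of all 35116 promoter sequences of that length. The genes below are printed on the strand that carries the box, with the box in capitals. The histidine and leucine genes are shown because copies of a sequence differed in whether a peak was called in their windows, and the glycine gene because its whole window was covered. TRH-GTG1-3 (chr1:148281365-148281436) and TRH-GTG1-9 (chr15:45201151-45201222) are histidine tRNA genes identical at 72 of 72 bases.
TRH-GTG1-3: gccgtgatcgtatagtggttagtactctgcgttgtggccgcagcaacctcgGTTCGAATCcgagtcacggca
TRH-GTG1-9: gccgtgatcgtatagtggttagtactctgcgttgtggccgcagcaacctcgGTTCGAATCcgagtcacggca
TRL-AAG2-2: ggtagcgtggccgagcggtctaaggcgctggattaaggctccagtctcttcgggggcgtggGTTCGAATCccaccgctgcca
TRG-CCC2-2: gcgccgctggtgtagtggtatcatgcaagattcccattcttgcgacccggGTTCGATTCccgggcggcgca

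No peak was called in the window of TRH-GTG1-3 in any library. The window of TRH-GTG1-9 had 449, 449 and 0 bp under peaks in shNC replicates 1 to 3 and 0, 449 and 449 bp in shTDP43. The windows of these identical genes thus differed, and the peak at TRH-GTG1-9 covered the same length of flank, not the gene, in each of the 4 libraries that had it. TRL-AAG2-2 (chr6:28943622-28943703), a leucine tRNA gene, had no peak in any library. Its last 63 bases are the same, at 63 of 63 positions, as the part of TRL-AAG2-4 that opens the promoter sequence of POLR3E, which encodes a subunit of RNA polymerase III itself. The 250 bases before the POLR3E start (chr16:22297159-22297408, plus strand) follow, with the B box of TRL-AAG2-4 in capitals.
POLR3E promoter: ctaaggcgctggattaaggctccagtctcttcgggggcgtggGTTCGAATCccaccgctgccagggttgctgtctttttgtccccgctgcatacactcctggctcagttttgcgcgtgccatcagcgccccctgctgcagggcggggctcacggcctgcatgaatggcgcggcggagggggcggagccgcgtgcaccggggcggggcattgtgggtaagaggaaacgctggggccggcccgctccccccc

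TRL-AAG2-4 had 1031 bp of its window under peaks in each of the 6 untreated libraries and 0 bp in both treated ones. The peak over it had a fold enrichment, as the authors' peak caller gave it, of 43.9 to 56.4 and a width of 4389 to 5274 bp. TRG-CCC2-2 (chr16:636736-636806), a glycine tRNA gene, was the single gene printed whole here that lay under peaks over its entire window of 1071 bp in all 6 untreated libraries.

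Most tRNA windows carried no peak. In 340 of 429 windows no peak was called in any untreated library, 46 windows had a peak in all 6, and 43 had one in 1 to 5 of them, of which 16 in exactly 1. Leaving out shTDP43 replicate 1, the list with fewest peaks, gave 341 windows without a peak and 50 with one in each of the remaining 5 libraries. Restricting every list to peaks of −log10 q of at least 10 lowered the windows with a peak in all 6 to 30. Among the 46, 17 lay wholly under peaks in every untreated library and another 10 had the same part of the window covered, to the base, in all 6.

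**Figure D1:**
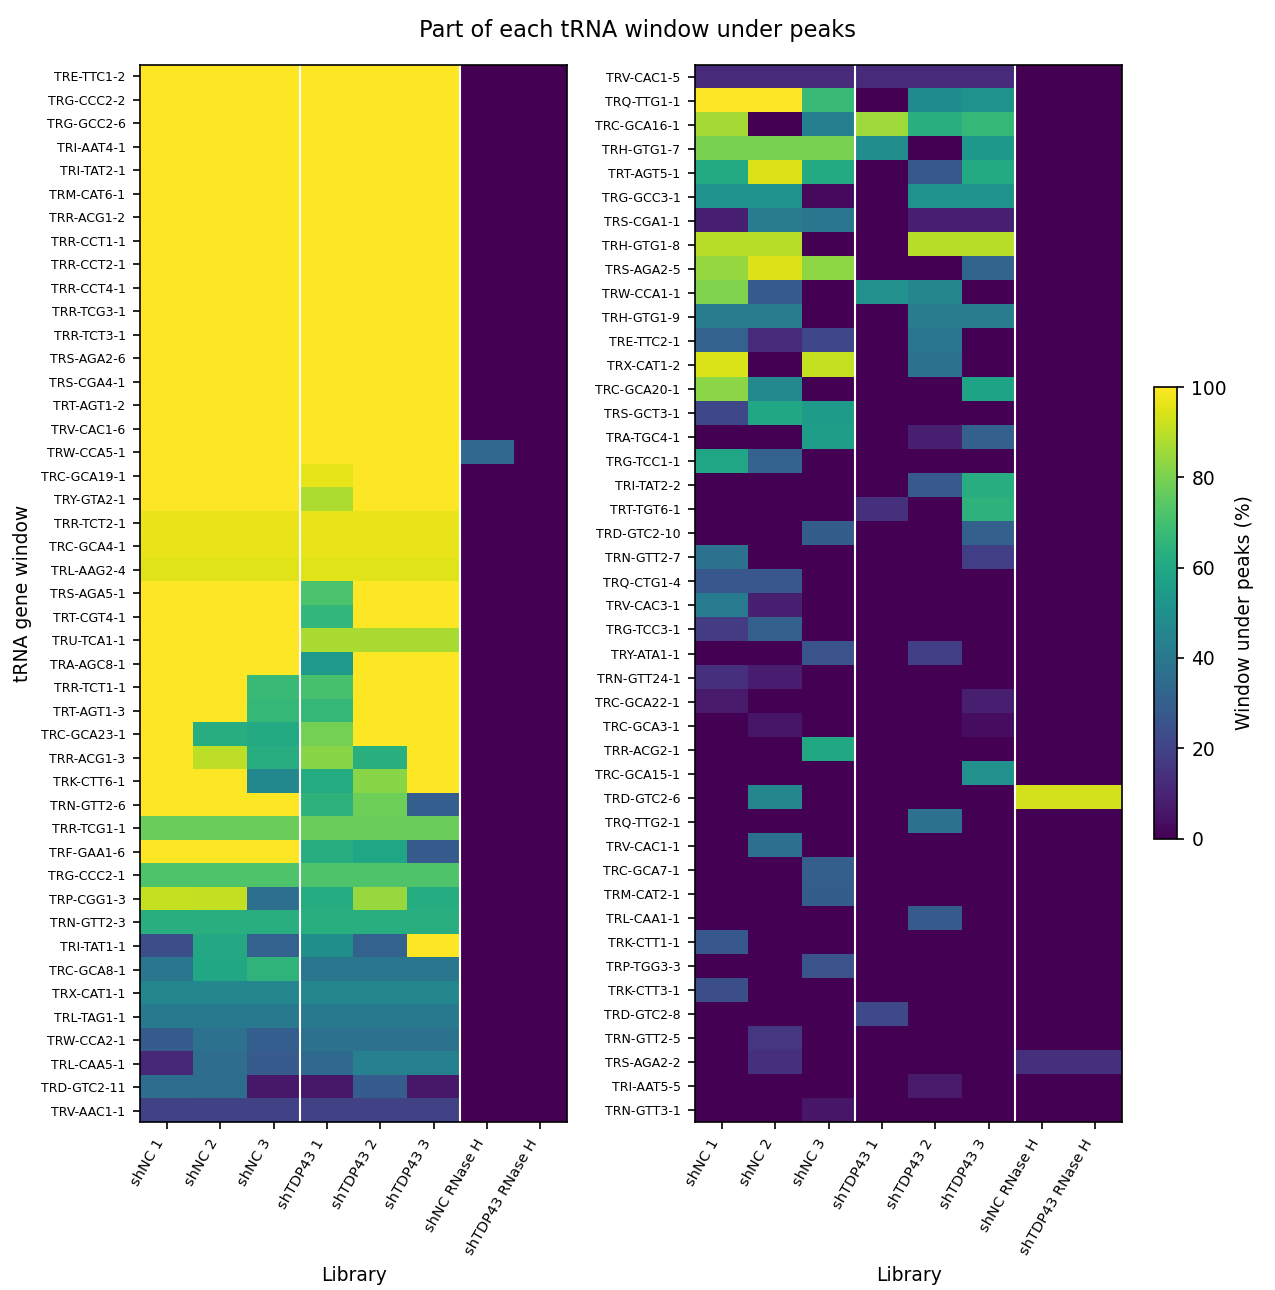
Percent of each window under peaks (colour) for the 89 tRNA windows with a peak in at least 1 untreated library (rows, split over both panels) in the 8 libraries (columns; white lines separate shNC, shTDP43 and the treated libraries). The 17 windows at the top of the left panel are fully covered in all 6 untreated libraries, the right panel is mostly patchy, and the treated columns are almost empty.

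The 46 constant windows were spread over 17 chromosomes and were not in proportion to gene number. Chromosome 6 holds 154 tRNA genes, of which 146 had no peak in any untreated library and 2 had one in all 6. Chromosome 1 holds 85, with 78 and 2. On chromosome 17, by contrast, 14 of 33 windows had a peak in all 6 libraries, and on chromosome 19 the count was 5 of 7.

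By amino acid, arginine genes had the most windows with a peak in all 6 libraries, 10 of 26, and 9 of these 26 genes lie within 2 kb of a protein-coding start. Cysteine genes followed with 4 of 29. Alanine, with 37 genes the most numerous, had 1, and 5.4% of its windows had a peak in any untreated library. Glutamine (19 genes) and histidine (9 genes) had 0. The remaining isotypes had between 1 and 3 such windows each. Counts per isotype come from few loci that can share a peak, so they describe loci rather than amino acids.

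Initiator methionine genes (TRX-CAT) supply the tRNA that starts translation. Of the 8, TRX-CAT1-1 (chr1:153671250-153671321) had 498 bp under peaks in every untreated library. Each time the peak ended at base 153671247, before the first base of the gene, so the gene itself was not covered. TRX-CAT1-1 lies 292 bp from the start of ILF2, a gene for a double-stranded RNA-binding protein, and the peaks there were 6274 to 17890 bp wide. TRX-CAT1-2 on chromosome 6 had 1011, 0 and 979 bp in shNC and 0, 405 and 0 bp in shTDP43, so its libraries overlapped between genotypes. The other 6 initiator genes had no peak in any library.

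Selenocysteine tRNA is encoded by TRU-TCA1-1, which reads a recoded stop codon. All 3 shNC libraries covered the whole window of 1087 bp (chr19:45478601-45478687 for the gene), and all 3 shTDP43 libraries covered 949 bp. The groups did not overlap, and the difference lay in where the peak stopped. It was not called in the window test described below (limma adjusted p = 0.782). How many of all windows had covered lengths that do not overlap between the groups was not counted, here or below. The peak was 11198 bp wide in each shTDP43 library and 24313 to 26481 bp in shNC. TRU-TCA2-1 on chromosome 22 had no peak, nor did TRR-TCT4-1, the arginine gene whose mouse counterpart is expressed mainly in the nervous system.

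The neighbourhood differed between clustered and isolated genes. A gene was called clustered when another tRNA gene lay within 10 kb, which held for 293 genes and left 136 isolated. Among clustered windows 11.6%, 12.3% and 9.90% had a peak in shNC replicates 1 to 3 and 8.53%, 10.6% and 11.6% in shTDP43. Among isolated windows the shares were 25.7%, 23.5% and 25.7% in shNC and 19.1%, 22.8% and 22.1% in shTDP43. Each library thus had the lower share at clustered genes, by −12.4 percentage points on average (6 of 6 libraries, exact permutation test flipping signs within libraries, 2-sided p = 0.031, the smallest that 6 libraries allow). All 5 differences tested this way had that p, also after adjustment over the 5, and the test covers spread between libraries, not between loci. The size depended on the distance rule, at −4.86 points with clusters defined within 5 kb and −26.8 points within 50 kb. It was −7.77 points with peaks of −log10 q of at least 10 and −8.01 points when at least 50% of a window had to be covered.

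**Figure D2:**
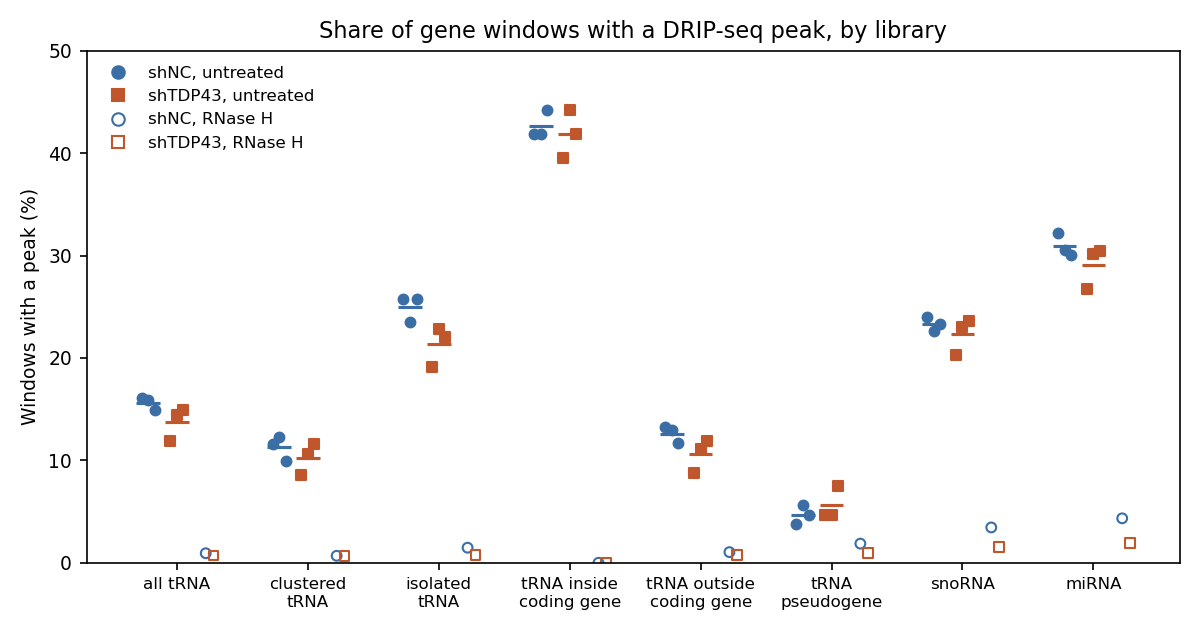
Percent of windows with at least 1 bp under a peak (y axis) for tRNA genes, their classes and other short RNA genes (x axis); filled points are untreated libraries, short lines their means (n = 3), open points the RNase H-treated library of each genotype. Isolated genes and genes inside coding genes lie above clustered and outside ones in every untreated library, and treated libraries reach at most 4.34% in any class.

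The largest arrays were nearly empty. Chaining genes no more than 10 kb apart gave 80 clusters, of which 60 had no peak over any member in any untreated library and 4 had every member covered in all 6. The largest, at chr1:161440171-161480636, holds 24 genes for glycine, aspartate, leucine and glutamate in a repeated order, and no library had a peak there. The same held for 12 genes at chr6:26299677-26331515, 8 genes at chr11:59550629-59566452 and 8 genes at chr6:28789770-28823389. In the second largest, 14 genes at chr16:3150674-3192060, 12 had no peak, TRK-CTT3-1 had 257 bp in shNC replicate 1 alone and TRP-TGG3-3 had 273 bp in shNC replicate 3 alone.

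The sixth largest cluster, 7 genes at chr17:8220869-8227064, differed from these. All 7 windows had a peak in at least 2 untreated libraries and 5 had one in all 6. TRT-AGT1-2, TRS-AGA2-6 and TRI-AAT4-1, for threonine, serine and isoleucine, lie inside CTC1, which encodes a telomere maintenance protein, and were wholly covered (1074, 1082 and 1074 bp) in all 6 untreated libraries. Their neighbours outside the gene were patchier: TRP-CGG1-3 had 977, 974 and 392 bp in shNC and 663, 906 and 663 bp in shTDP43. TRG-TCC3-1 had 185 and 330 bp in shNC replicates 1 and 2 and none elsewhere.

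Location inside a protein-coding gene went with more peaks. The span of 43 tRNA genes overlaps a coding gene, on either strand since no strand was used, and 386 do not. Inside, 41.9%, 41.9% and 44.2% of windows had a peak in shNC and 39.5%, 44.2% and 41.9% in shTDP43. Outside, the shares were 13.2%, 13.0% and 11.7% in shNC and 8.81%, 11.1% and 11.9% in shTDP43. The difference of 30.6 percentage points had the same sign in 6 of 6 libraries (exact permutation test flipping signs, 2-sided p = 0.031). As a reference, tiles of 1073 bp laid over the chromosomes, assembly gaps included, carried a peak in 8.95% to 13.1% of cases inside coding genes and 1.65% to 2.36% outside.

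The difference between clustered and isolated genes was seen outside coding genes, whereas inside them the mean share was not lower at clustered genes. Of 265 clustered genes outside coding genes 12 (4.53%) had a peak in all 6 libraries and 235 had none. Of 28 clustered genes inside coding genes 10 (35.7%) had one in all 6, of 15 isolated genes inside them 5 (33.3%) did, and of 121 isolated genes outside coding genes 19 (15.7%) did. The 10 include neighbours that can share a peak, 3 in CTC1, 3 in KCTD2 and 2 in AGBL5. They are thus fewer loci than genes. Inside coding genes a peak was present at 45.2% ± 2.06 (SD, n = 3) of clustered and 37.8% ± 7.70 (SD, n = 3) of isolated genes in shNC. In shTDP43 the shares were 44.05% ± 4.12 and 37.8% ± 3.85 (SD, n = 3). Whether the difference itself differs between these classes was not tested.

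Distance to the nearest protein-coding start was examined after the data had been seen and is given as a description. It was measured for 424 genes, since the promoter table used here has no entry for the 5 on chromosome 8. Whether that table lists every other coding start was not checked, so a gene may lie nearer to a start than given. Of the 37 tRNA genes within 1 kb of a coding start, 59.0% had a peak on average over the 6 libraries (54.1% to 67.6%), against 48.1% of tiles at that distance. For the 8 genes at 1 to 2 kb it was 68.8% against 34.8%. The share then dropped to 24.2% of 20 genes at 2 to 5 kb, 13.1% of 28 at 5 to 10 kb, 9.70% of 178 at 10 to 50 kb and 6.00% of 153 farther away, where tiles gave 20.7%, 16.6%, 9.90% and 2.00%. From 2 to 50 kb the means of the tRNA windows and the tiles over the 6 libraries thus differed by at most 3.50 points. Single libraries differed by more. In shNC replicate 1 the shares were 30.0% against 22.7% at 2 to 5 kb and 10.7% against 18.1% at 5 to 10 kb. Beyond 50 kb the tRNA windows were higher in every library.

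Of the 46 windows with a peak in all 6 libraries, 24 lay within 2 kb of a listed coding start and 15 inside a coding gene. At 10 kb or more from any listed start lay 16. At 2 kb or more, outside coding genes, 4.30% of 248 clustered genes and 15.2% of 105 isolated genes had a peak on average. Inside coding genes at that distance the order was the other way, 40.2% of 17 clustered and 16.7% of 9 isolated genes. Neighbours under the same peak, such as those in CTC1, are among these clustered genes, so the loci are fewer than the genes.

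**Figure D3:**
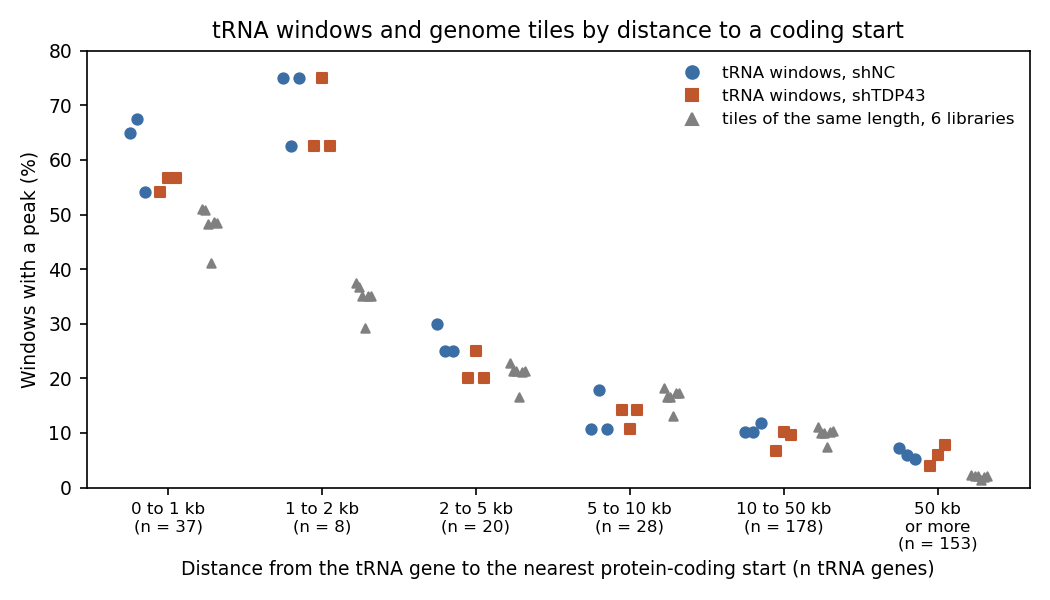
Percent of windows with a peak (y axis) by distance from the tRNA gene to the nearest listed protein-coding start (x axis, number of tRNA genes in parentheses). Points are untreated libraries, and triangles are tiles of 1073 bp at the same distances in the same 6 libraries. Within 2 kb at least 54.1% of tRNA windows carried a peak in every library, and beyond 5 kb at most 17.9% did.

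Among genes next to coding starts, TRM-CAT6-1, an elongator methionine gene 282 bp from the FBXO31 start, and TRR-TCT3-1, an arginine gene 406 bp from that of SLC27A4, were covered over their whole windows (1073 and 1091 bp) in all 6 untreated libraries. So were TRR-CCT1-1, TRR-CCT2-1 and TRR-TCG3-1, 3 arginine genes inside KCTD2, under peaks of 3633 to 5687 bp measured at the first of them. TRG-CCC2-1, 233 bp from the start of TIA1, a regulator of splicing and translation, had 774 bp covered in every untreated library, always by a peak of 1538 bp. In AGBL5, TRY-GTA2-1 and TRA-AGC8-1 were covered over 1089 and 1073 bp in 5 untreated libraries and over 955 and 581 bp in shTDP43 replicate 1.

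Windows far from any listed coding start could be as constant. TRS-CGA4-1, 31518 bp from the start of RNF41, and TRI-TAT2-1, 17999 bp from that of HAAO, lay wholly under peaks in all 6 untreated libraries. TRT-CGT4-1, 252870 bp from the nearest listed coding start, was fully covered (1072 bp) in 5 of them and over 710 bp in shTDP43 replicate 1. TRN-GTT2-3 on chromosome 10 had 674 bp under a peak of 778 bp in each of the 6, with folds of 6.73 to 11.97.

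Coverage did not stand out at every tRNA gene. Averaged over all 429, the gene span itself was under peaks for 11.6%, 11.4% and 11.5% of its length in shNC and 8.88%, 10.0% and 10.9% in shTDP43. The bases 2 to 5 kb away on both sides were covered for 7.70%, 7.35% and 6.63% in shNC and 5.47%, 7.28% and 7.55% in shTDP43. Gene spans exceeded these flanks by 3.71 percentage points (6 of 6 libraries, exact permutation test flipping signs, 2-sided p = 0.031). Coverage rose again farther out, to 13.3% in shNC and 12.3% in shTDP43 at 16 kb on the lower-coordinate side, above the level at the genes.

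The local rise was larger at genes inside coding genes than at those outside. There the 500 bp below the gene centre were under peaks for 39.7% in shNC and 38.7% in shTDP43, against 7.72% and 7.40% about 4 kb farther down. Outside coding genes the same positions gave 7.90% and 6.86%, against 5.10% and 4.86%. About 4 kb on the higher-coordinate side, shNC and shTDP43 had 12.1% and 14.6% inside and 6.54% and 6.29% outside. Inside coding genes coverage also reached 32.0% in shNC and 29.0% in shTDP43 near 16 kb on the lower-coordinate side.

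**Figure D4:**
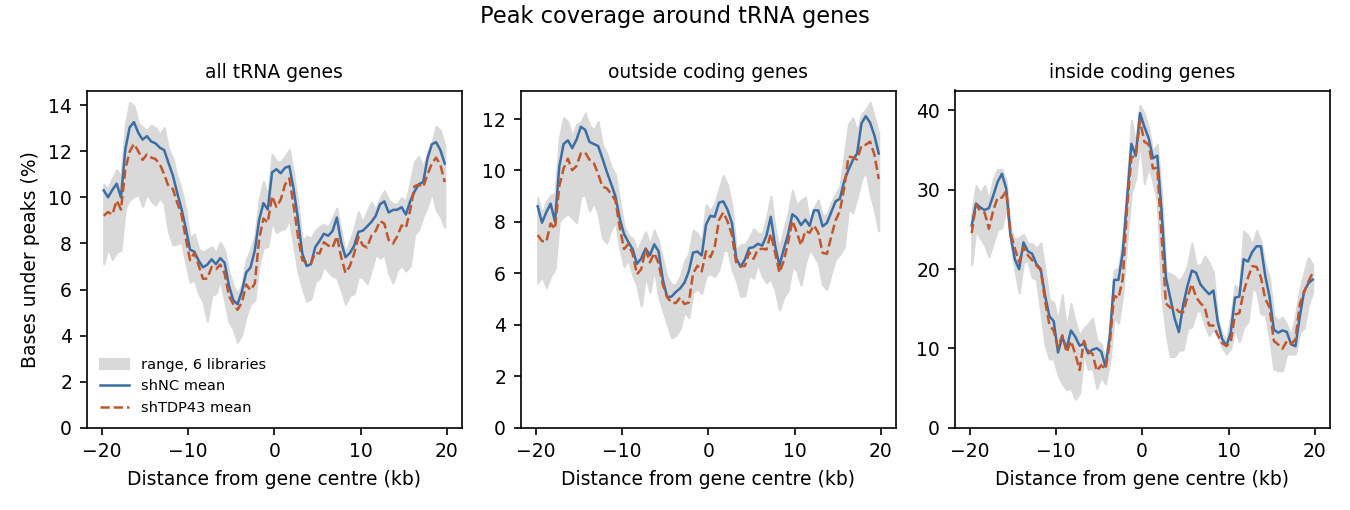
Percent of bases under peaks in bins of 500 bp (y axis) by distance from the tRNA gene centre (x axis, kb, negative towards lower coordinates), averaged over all, outside and inside genes; lines are genotype means (n = 3) and grey bands the range of the 6 untreated libraries. Genes inside coding genes show a central maximum of 39.7% in shNC, and over all genes the highest coverage lies near 16 kb on the lower-coordinate side, not at the centre.

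Peaks that touched tRNA windows were broad. In shNC replicate 1, 55 peaks accounted for the 69 windows with a peak, and their median width was 2937 bp against 756 bp for all peaks, with a median fold of 9.32 against 4.33. Over the 6 untreated libraries the median width ranged from 1669 to 2937 bp, and a peak summit fell inside 34.4% to 48.4% of the windows with a peak. A peak reached the gene span itself in 50 of the 69 windows in shNC replicate 1 and in 40 of the 51 in shTDP43 replicate 1. The peak lists thus do not resolve the tRNA gene from what surrounds it, and DRIP-seq without strand cannot assign a hybrid to the tRNA or to a neighbouring transcript.

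Some peak edges in these windows fell on restriction sites. Where promoter sequence covered the edge, 14 edge positions were found in tRNA windows of untreated libraries. All 4 positions shared by 2 or more libraries lay at a cut of an enzyme used in the assay, against 1 of the 10 seen in a single library. Over all peaks, 142 of 142 starts shared to the base by all 6 untreated libraries and covered by promoter sequence lay at such a cut, as did 136 of 137 ends. Among all starts of shNC replicate 1 the share was 44.0%. The sites next to TRH-GTG1-9 (chr15:45201095-45201222, plus strand, XbaI site and B box in capitals) and in the RAB11A promoter near TRQ-CTG1-4 (chr15:65869290-65869395, plus strand, HindIII site in capitals) show where such edges lay.
XbaI to TRH-GTG1-9: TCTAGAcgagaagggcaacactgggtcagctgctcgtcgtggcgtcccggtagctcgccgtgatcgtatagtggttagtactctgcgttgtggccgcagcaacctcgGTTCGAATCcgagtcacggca
RAB11A promoter: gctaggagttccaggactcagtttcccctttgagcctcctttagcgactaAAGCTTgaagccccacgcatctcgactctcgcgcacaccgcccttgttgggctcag

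The peak counted for TRH-GTG1-9 ended at base 45201099, at the XbaI cut, in all 4 libraries that had it, 51 bp before the gene, so the gene itself was not covered. The peak counted for TRQ-CTG1-4, a glutamine gene, started at base 65869341, at the HindIII cut, in both libraries that had it, 207 bp past the gene. TRI-TAT1-1, an isoleucine gene, had an edge at an SspI cut 239 bp away in 4 libraries. None of the 11 tRNA windows with an edge at the same base in all 6 untreated libraries had promoter sequence there, so those edges were not compared with restriction sites.

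Genes for 2 other classes of short RNA were more often under peaks, and small nuclear RNA genes less often. Windows of 1190 small nucleolar RNA (snoRNA) genes, which guide RNA modification and mostly lie in introns, had a peak in 23.3% ± 0.71 (SD, n = 3) of cases in shNC and 22.3% ± 1.80 (SD, n = 3) in shTDP43. For 1911 microRNA genes it was 30.9% ± 1.13 and 29.1% ± 2.08. The tRNA share was lower than the snoRNA share by a mean difference of −8.13 percentage points and than the microRNA share by −15.3 points, each in 6 of 6 libraries (exact permutation test flipping signs, 2-sided p = 0.031). Without peaks also called after RNase H the differences were −4.24 and −9.32 points, and with overlapping windows merged the snoRNA difference was −5.21 points. These classes were not matched for position in coding genes, which 386 of the 429 tRNA genes lie outside. The 43 tRNA genes inside had a peak in 42.6% in shNC and 41.9% in shTDP43, above both other classes. Those outside had one in 12.6% and 10.6%, below both. The part of position in these differences was not tested. The 149 small nuclear RNA windows, not tested, had a peak in 14.8%, 13.4% and 10.7% of cases in shNC replicates 1 to 3 and in 9.40%, 10.7% and 12.1% in shTDP43, below the tRNA share in each library. tRNA pseudogenes, added after the data had been seen and not tested, gave 3.74% to 7.48% of 107 windows.

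Gene copies with the same mature sequence often differed. Of 57 sets of 2 or more genes that share a mature sequence, 32 had no peak at any copy in any untreated library and 1 had a peak at every copy in all 6. In 16 sets at least 1 copy had a peak in all 6 libraries while another had none in any. The aspartate set TRD-GTC2, with 11 copies, had 1 of the former and 7 of the latter, and the phenylalanine set TRF-GAA1 had 1 and 5 among 6. TRL-AAG2-4 was likewise the only copy of 4 with a peak. Sets were formed by name. The 207 genes in no set of 2 or more had a peak in all 6 libraries in 11.6% of cases and in none in 77.3%. They include entries named without a number for the mature sequence, such as TRNAV-CAC, whose sequences were not compared. For the 222 genes in sets the shares were 9.91% and 81.1%. The placing of reads from near-identical copies is not described in the labels, and its part in windows without peaks was not tested.

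The comparison of genotypes asks whether stable TDP-43 knockdown changed hybrids at tRNA genes. A peak was present in 16.1%, 15.9% and 14.9% of the 429 windows in shNC replicates 1 to 3 (mean 15.6% ± 0.62, SD, n = 3) and in 11.9%, 14.5% and 14.9% in shTDP43 (13.8% ± 1.63, SD, n = 3). The lowest value belonged to shTDP43 replicate 1, and the groups met at 14.9%. The difference of −1.87 percentage points did not pass the test (exact permutation test of library labels, 2-sided p = 0.2, adjusted p = 0.267 over 4 such tests, smallest possible p = 0.1). Without shTDP43 replicate 1 it was −0.93 points. The Wilson 95% interval of a single library was wide, 12.9% to 19.9% for shNC replicate 1, and covers counting error only. After removal of peaks also called in the treated library of the same genotype the difference was 0.23 points, in the other direction.

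Covered length gave the same picture. Peaks covered 11.7%, 11.3% and 10.3% of the summed window length in shNC and 8.68%, 10.1% and 10.6% in shTDP43, a difference of −1.33 points (exact permutation test, 2-sided p = 0.2, adjusted p = 0.267). The clustered minus isolated difference was −13.7 points in shNC and −11.1 in shTDP43, which differed by 2.65 (exact permutation p = 0.2). The inside minus outside difference was 30.0 and 31.2 points, which differed by 1.21 (exact permutation p = 0.5), and the sign of the last value turned under several settings given in the closing section.

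Window by window, the covered length was compared with limma on log2(covered bp + 100) over all RefSeq gene windows whose mean covered length over the 6 libraries reached 200 bp and that were not equal in all of them. Of 17763 windows tested over all biotypes, 0.0281% were called with more and 0.152% with less coverage in shTDP43 at an adjusted p under 0.05. Of the 31 tRNA windows that entered the test, 0 were called in either direction. On simulated data the same fit missed most of the changes put in. The simulated noise took the larger of the group SDs of each window, and changes were not capped at the window length. The share missed is thus no measure of power in these data. The 0 calls do not show that the windows were equal. At an unadjusted p under 0.05 limma gave 3 of the 31, all with less coverage in shTDP43, where the share over all windows tested was 8.24% with less and 0.681% with more. The other 398 windows were not tested: 340 had no peak, 27 had the same covered length in all 6 libraries and 31 had a mean under 200 bp. The median log2 difference of the 31 was −0.12, beside −0.19 over all windows tested. After scaling to the total covered length the medians were 0.03 and 0.00, so the direction for tRNA windows turned with the scaling.

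TRS-GCT3-1 (chr11:66348120-66348201), a serine gene 3056 bp from the start of BRMS1, was the only tRNA gene with a peak in all 3 libraries of 1 genotype and in none of the other. It had 235, 644 and 597 bp under peaks in shNC and 0 bp in each shTDP43 library (limma adjusted p = 0.253). Over all 58419 windows 0.354% had a peak in all shNC and no shTDP43 library, and 0.0257% the reverse, so 1 of 429 tRNA windows and 0 of 429 were close to the background shares. The peaks at TRS-GCT3-1 were weak, with folds of 2.54 to 3.73.

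TRS-AGA2-5 (chr8:95269657-95269738), another serine gene, had 910, 1026 and 899 bp in shNC and 0, 0 and 352 bp in shTDP43. The groups did not overlap, with a log2 difference of −2.66 ± 0.70 (SE, limma adjusted p = 0.314). The phenylalanine gene TRF-GAA1-6 (chr19:1383362-1383434) was fully covered in shNC (1073 bp in each library) and had 670, 635 and 303 bp in shTDP43, a log2 difference of −0.94 ± 0.33 (SE, limma adjusted p = 0.491). Its neighbour TRN-GTT2-6, for asparagine, lies 308 bp from the start of NDUFS7, a subunit of respiratory complex I, and shares the peak. It had 1074 bp in each shNC library and 694, 837 and 319 bp in shTDP43 (−0.79 ± 0.37, SE, limma adjusted p = 0.627). At this locus too the groups did not overlap, and the peak was 4191 to 10658 bp wide in shNC and 1322 to 3107 bp in shTDP43.

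The 10 windows with the smallest p values and less coverage in shTDP43 also included TRX-CAT1-2 and TRU-TCA1-1, given with the initiator and selenocysteine genes, and 4 others. TRQ-TTG1-1, for glutamine, had 1072, 1072 and 725 bp in shNC and 0, 521 and 546 bp in shTDP43 (limma adjusted p = 0.651). TRT-AGT5-1, for threonine, had 656, 1016 and 656 bp against 0, 295 and 656 bp, and TRH-GTG1-7, for histidine, had 857 bp in each shNC library against 525, 0 and 570 bp. In each of these a single shTDP43 library had no peak, replicate 1 in the first 2 and replicate 2 at TRH-GTG1-7. Groups were apart at TRQ-TTG1-1 and TRH-GTG1-7 and met at 656 bp at TRT-AGT5-1. TRC-GCA8-1, for cysteine, had 420, 643 and 699 bp in shNC and 420 bp in each shTDP43 library, so that the groups met at 420 bp.

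In the other direction 8 tested windows had a positive log2 difference, with limma adjusted p of 0.734 or more. TRL-CAA5-1, for leucine, had 122, 383 and 310 bp in shNC and 369, 468 and 468 bp in shTDP43. TRC-GCA16-1 and TRC-GCA23-1, cysteine genes on chromosome 7, had 928, 0 and 464 bp against 913, 674 and 715 bp, and 1072, 669 and 655 bp against 846, 1072 and 1072 bp. All 3 overlapped between genotypes. TRI-TAT1-1 had 261, 660 and 343 bp against 543, 343 and 1093 bp. For TRW-CCA2-1, TRK-CTT6-1, TRR-TCT1-1 and TRP-CGG1-3 the log2 difference was 0.19 or less.

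**Figure D5:**
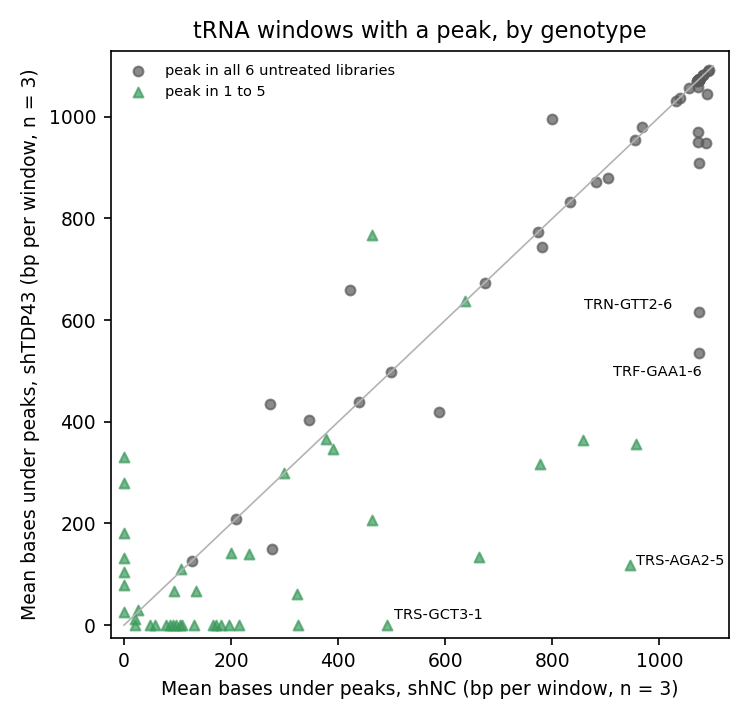
Mean bases under peaks per window in shTDP43 (y axis, n = 3) against shNC (x axis, n = 3) for the 89 tRNA windows with a peak in at least 1 untreated library; the line marks equal values. Windows with a peak in all 6 libraries lie mostly on or near the line, and the 4 labelled windows lie below it.

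Counting any difference in presence, 17 tRNA genes had a peak in some shNC library and in no shTDP43 library, and 7 the reverse, where 2.6% and 1.1% of all windows did. These are the windows with few libraries: 28 of the 43 variable windows had a peak in only 1 or 2 of the 6.

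After RNase H nearly no tRNA window had a peak. With 1 treated library per genotype there is no test. Of 429 windows 4 (0.93%, Wilson 95% interval 0.36% to 2.37%) had a peak in treated shNC and 3 (0.70%, 0.24% to 2.04%) in treated shTDP43, against 14.9% to 16.1% and 11.9% to 14.9% in the untreated libraries. After treatment a peak was called in the snoRNA windows in 3.45% and 1.51% and the microRNA windows in 4.34% and 1.94%. Of all tiles of 1073 bp over the chromosomes, 0.86% had a peak in treated shNC and 0.48% in treated shTDP43. The tRNA shares were thus not below those of the tiles. Of the 46 windows with a peak in every untreated library only TRW-CCA5-1, a tryptophan gene, had one after treatment, over 365 of its 1072 bp in shNC and 0 in shTDP43.

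The other windows with a peak after RNase H had few or no peaks in the untreated libraries. TRV-TAC3-1 (chr10:5853711-5853783), a valine gene, had 744 bp under a peak in treated shNC and 1073 bp in treated shTDP43, and 0 bp in all 6 untreated libraries. TRD-GTC2-6 and TRS-AGA2-2, neighbours on chromosome 6, had 997 and 145 bp in each treated library, under a peak of 1178 bp. Of the untreated libraries only shNC replicate 2 had a peak there, over 498 and 145 bp. All 3 had a fold of 5.68 to 8.24 after treatment.

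Genes that make, process and charge tRNA were examined in the same fit, from lists drawn up by function. None of the tested members was called in either direction: 0 of 11 RNA polymerase III subunits, 0 of 10 initiation factors, 0 of 18 processing, 0 of 12 modification, 0 of 20 cytosolic aminoacyl-tRNA synthetase and 0 of 1 export or repression genes. Over all windows tested 0.0281% were called with more and 0.152% with less coverage, so 0 calls in lists of this size says little about these genes. At an unadjusted p under 0.05 limma gave 1, SSB, which encodes the La protein that binds the 3′ ends of new polymerase III transcripts. SSB had less coverage in shTDP43, as did 8.24% of all windows tested at that threshold, against 0.681% with more. Most members carried a peak in all 6 untreated libraries, among them 11 of 13 polymerase subunits and 20 of 20 synthetases, and their windows are far longer than those of tRNA genes.

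SSB had 1948, 2218 and 2228 bp of its window under peaks in shNC and 1229, 1647 and 1568 bp in shTDP43, a log2 difference of −0.50 ± 0.18 (SE, limma adjusted p = 0.489) with no overlap between groups. The tRNA splicing endonuclease subunit TSEN54 had 6267, 5604 and 6234 bp against 3948, 5340 and 5165 bp. The polymerase III subunit CRCP had 25377, 21102 and 22132 bp against 15877, 19853 and 20605 bp. For the TFIIIC subunits, GTF3C4 had 12173, 8841 and 10595 bp against 6559, 7045 and 9599 bp, and GTF3C3 had 2825, 3141 and 2646 bp against 1228, 694 and 3274 bp. In SSB, TSEN54, CRCP and GTF3C4 the lowest value was that of shTDP43 replicate 1.

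The same replicate was lowest in the remaining named genes. ELP3, the catalytic subunit of the Elongator complex that modifies the wobble base, had 10060, 11154 and 12224 bp in shNC and 2710, 9793 and 9207 bp in shTDP43. TRDMT1, a tRNA cytosine methyltransferase, had 972 bp in each shNC library and 314, 971 and 972 bp in shTDP43. CARS1 and TARS1, the cysteine and threonine synthetases, had 45927, 44588 and 47013 bp against 32674, 41864 and 45421 bp, and 8576, 6520 and 8435 bp against 4185, 6744 and 7749 bp. XPOT, which exports tRNA from the nucleus, had 7152, 5185 and 6504 bp against 2912, 5670 and 4761 bp. Median log2 differences of the lists with more than 1 tested gene ranged from −0.22 to −0.07, beside −0.19 over all windows. XPOT, the only tested gene of its list, had −0.53. The part of the smaller peak list of shTDP43 replicate 1 in these values was not tested.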

How the data were processed

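DRIP-seq peak lists of 8 libraries were used, called per library. Bowtie2 2.4.4, SAMtools and MACS2 2.2.6, with the hg38 build, are listed in the submitters' processing notes. The labels give no settings, mapping-quality filter or control for peak calling. Each deposited peak carries a score, a fold enrichment (a ratio) and −log10 p and −log10 q values, as the authors' peak caller wrote them. The lowest −log10 q in the deposited lists was 1.30 to 1.31. These values served to describe and filter peaks inside 1 list.

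From the deposited positions, presence (at least 1 bp) and covered bp were computed per window with Python 3.11.15. Shares were compared with exact permutation tests, and windows with limma 3.58.1 (R 4.3.3; eBayes with trend) on log2(covered bp + 100), unscaled, with Benjamini-Hochberg adjustment at 0.05 over all windows tested. Log2 differences understate changes of short covered lengths. The fit was tested on simulated data. RefSeq positions (GRCh38.p14) carry no strand here. Genes named in the text were those with the smallest p in each direction (up to 10), those with peaks in 1 genotype only or after RNase H, the 5 largest clusters, initiator methionine, selenocysteine and TRR-TCT4-1 genes, isotypes as groups and 2 genes per pathway list, of which 1 is not reported here. TRL-AAG2-4, TRG-CCC2-2, the sixth cluster, the genes at coding starts or far from them and those at restriction sites were chosen after their values were seen. Members and lists were chosen with earlier results of these data known. Alternatives covered the flank, overlap, q threshold, equal peak numbers, peaks also called after RNase H, merged windows, left-out libraries, class definitions, pseudocount, filter, scaling and the replicate block.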

Additional observations from a re-analysis of the deposited data

How the results depend on the processing

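Peak lists without read counts limit all values: a missing peak is no measure of absence, and covered length saturates at the window. The clustered minus isolated, inside minus outside, gene minus flank, snoRNA and microRNA differences kept their sign and their p of 0.031 under every alternative that kept 6 libraries, with sizes that moved by over 1.5 times for the first and the last 2, as given with those results. With fewer libraries no p under 0.05 can be reached (exact permutation, 0.0625 with 5 libraries and 0.125 with 4). Leaving out each library in turn gave −12.8 to −11.7, 30.2 to 31.0, 3.48 to 3.90, −8.41 to −8.02 and −15.5 to −15.2 points, and leaving out replicate 1 of both genotypes gave −12.4, 31.1, 3.73, −8.12 and −15.3 points. The difference between genotypes in windows with a peak ranged from −2.45 to −0.93 points, and in covered length from −1.72 to −0.77, when 1 library was left out. With all 6 libraries the former lay between −1.705 and −0.855 under settings that kept its sign, apart from the replicate block, which left it at −1.865. Without peaks also called after RNase H these turned to 0.23 and 0.36 points, and the cause was not tested. The inside minus outside difference by genotype turned to −0.34 without the flank, −1.12 and −2.58 with −log10 q of at least 5 and 10, and −5.08 with coding spans widened by 1 kb. The clustered minus isolated difference by genotype turned to −0.48 with −log10 q of at least 10. The causes were not tested. Windows with a peak in all 6 untreated libraries, recounted by alternatives chosen after seeing the data, numbered 30 with −log10 q of at least 10, which removes weaker peaks, and 46 to 50 without any 1 library. limma called 0 tRNA windows in each of the 16 alternatives, at an unadjusted p under 0.05 between 1 and 4. Over all biotypes it called 5 windows with more and 27 with less coverage, against 24 and 104 after scaling, 10 and 148 without trend, 8 and 180 with −log10 q of at least 10, and 0 and 0 with a pseudocount of 10 bp, with a replicate block or without shTDP43 replicate 3 or any 1 shNC library. Same-numbered libraries did not deviate together (correlations −0.10, 0.00 and −0.093), so no pairing by number was seen. These correlations cannot show whether such libraries were prepared together. With the replicate block the exact permutation p was 0.5 for windows with a peak and for covered length, in place of 0.2.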
